A study of Mus musculus with 6 samples.

Results

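Lymphocyte-attracting CXC chemokines and their receptors were followed in macrophages sorted from a mouse melanoma. The 9 genes are *Cxcl9*, *Cxcl10* and their receptor *Cxcr3*, *Cxcl16* and its receptor *Cxcr6*, *Cxcl12* and its receptor *Cxcr4*, and the ligands *Cxcl13* and *Cxcl14*. They were taken by symbol, whatever their values, and all 9 were found among the 23424 genes of the 6 count tables. Tumors were raised by intradermal injection of YUMM1.7, a mouse melanoma cell line, into untreated wild-type C57Bl/6J female mice aged 8 weeks, and were harvested on day 21. Live CD45+ CD11b+ F4/80+ cells were then sorted into an F4/80high and an F4/80low subset of tumor-associated macrophages (TAMs), and poly-A RNA was sequenced from 3 libraries of each. The study's methods add a lineage-negative gate to this sort, and each library came from pooled tumors in 1 of 3 independent experiments. Genotype, strain, sex, age, tumor and day were thus shared by both subsets, which were separated by F4/80 level. Libraries with the same replicate number are called a replicate pair, and pairs 1 and 2 belong to the study's first batch and pair 3 to its second, so the ratio in pair 3 is also the value within that batch.

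CXC chemokines are small secreted proteins that bind G protein-coupled receptors and draw leukocytes along a gradient. CXCL9 and CXCL10 are induced by interferons and attract activated T and NK cells through CXCR3. CXCL16 is made as a membrane protein, can be shed, takes up oxidized lipoprotein, and binds CXCR6 on memory and tissue-resident T cells. CXCL12 is a stromal factor that retains CXCR4-bearing cells, CXCL13 guides B cells and follicular T cells through CXCR5, and CXCL14 is abundant in normal skin epithelium.

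The promoters of *Cxcl9* and *Cxcl10*, neighboring interferon-inducible genes whose ratio between the subsets had opposite signs in replicate pair 3, are shown with that of *Cxcl14*, a ligand higher in F4/80high in every pair. Each is the 250 bases before the RefSeq start in GRCm38.p6, read 5′ to 3′ on the gene's strand. *Cxcl9* is at chr5:92328080-92328329, *Cxcl10* at chr5:92348890-92349139 and *Cxcl14* at chr13:56296552-56296801, all on the minus strand. Capitals mark matches to the interferon-stimulated response element core GAAANNGAAA, the gamma-activated site TTCNNNGAA and the kappaB forms GGGNNTTCC and GGGNNNTTCC, searched on both strands.
Cxcl9: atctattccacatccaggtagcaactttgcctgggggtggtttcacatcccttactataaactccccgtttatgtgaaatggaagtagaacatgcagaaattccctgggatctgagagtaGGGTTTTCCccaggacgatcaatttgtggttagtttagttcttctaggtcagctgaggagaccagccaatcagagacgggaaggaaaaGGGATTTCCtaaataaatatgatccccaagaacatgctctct
Cxcl10: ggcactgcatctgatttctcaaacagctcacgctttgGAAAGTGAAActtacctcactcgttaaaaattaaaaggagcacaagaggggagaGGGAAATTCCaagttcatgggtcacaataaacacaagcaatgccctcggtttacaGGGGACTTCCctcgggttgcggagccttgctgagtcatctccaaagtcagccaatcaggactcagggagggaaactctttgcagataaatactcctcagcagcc
Cxcl14: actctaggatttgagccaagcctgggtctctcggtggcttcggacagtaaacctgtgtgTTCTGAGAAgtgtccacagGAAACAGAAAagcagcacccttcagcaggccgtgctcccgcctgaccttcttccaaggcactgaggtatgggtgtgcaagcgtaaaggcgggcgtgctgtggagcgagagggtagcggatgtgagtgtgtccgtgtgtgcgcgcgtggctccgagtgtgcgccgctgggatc

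Promoters were held for 8 of the 9 genes. The GAAANNGAAA core was found in 2 of the 8, *Cxcl10* from base -213 to -204 and *Cxcl14* from -172 to -163, counted back from the start, and in 2.98% of all 32851 promoters of this length. The 9-base kappaB form was found in *Cxcl9*, at -130 to -122 and -42 to -34, and in *Cxcl10*, at -103 to -95, and in 4.98% of all promoters. The 10-base form was found in *Cxcl10* alone, at -159 to -150 and at -104 to -95, the latter covering the 9-base match, and in 4.65% of all promoters. TTCNNNGAA was found in *Cxcl14* alone, at -191 to -183, and in 7.02% of all promoters. The T-box element TCACAC was found in *Cxcr3* alone, from -234 to -229, and in 12.3% of all promoters, and the hypoxia element core ACGTG was in none of the 8 and in 16.6% of all. These are matches of letters and not measured binding sites.

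The libraries held 16045281 to 43604373 counts. Replicate 3 of both subsets held the smallest totals, and *Lars2*, Gm23935 and Gm15564 took 16.1% to 17.1% of its counts against 0.378% to 0.609% in replicates 1 and 2. Levels are given as CPM, counts scaled to library size with TMM, the edgeR normalization factors. These were 0.646 and 0.601 in replicate 3 of F4/80high and F4/80low, and 1.21 to 1.34 in replicates 1 and 2. Levels compared between replicates therefore depend on this scaling. Levels of different genes are compared as RPKM, which also divides by gene length. *Adgre1*, which encodes the F4/80 used for the sort, was at 273, 539 and 360 CPM in F4/80high replicates 1 to 3 and at 243, 327 and 183 CPM in F4/80low, higher in F4/80high in 3 of 3 pairs. Macrophage markers summed to 5448 to 31998 CPM. Melanoma markers, of which 4 of 7 were among the counted genes, summed to 1.51 to 6.86 CPM. Keratinocyte markers, 2 of 5 counted, summed to 0.228 to 1.92 CPM. Sums were 723 to 4595 CPM for neutrophil, 451 to 1906 for fibroblast, 162 to 1301 for T cell and 152 to 1503 for NK cell markers. They were 105 to 664 CPM for dendritic cell, 90.0 to 603 for eosinophil, 32.0 to 87.4 for endothelial and 6.62 to 139 for B and plasma cell markers.

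No gene among the 9, and none of the 14645 protein-coding genes tested, passed the call of an adjusted p under 0.05 with an absolute log2 fold change above 1 in the edgeR quasi-likelihood test with batch as a term (percent called 0). At an unadjusted p under 0.05, that test held 1 of the 9, *Cxcl16*, beside 7.60% of all genes. DESeq2 with the same batch term called 148 genes of all and none of the 9. With each pair as a block, edgeR called 76 genes, 0.519% of those tested, and again none of the 9. DESeq2 with the block called 354 genes, 2.42% of those tested, and 1 of the 9, *Cxcl14*. The median edgeR log2 fold change of the 9 was 0.67, against 0.01 over all genes tested, and 6 of the 9 were above 0.

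Direction within pairs differed between the genes. *Cxcl16* and *Cxcl14*, 2 of the 9, were higher in F4/80high in 3 of 3 pairs, as were 16.0% of all genes tested. *Cxcr4*, 1 of the 9, was lower in F4/80high in 3 of 3 pairs, as were 15.9% of all genes. In TMM-scaled CPM, levels of the subsets did not overlap for *Cxcl16* alone, 1 of the 9, beside 5.20% of all genes. In replicate pair 1, 8 of the 9 genes were higher in F4/80high, against 2 of the 9 in pair 2 and 6 of the 9 in pair 3. The other 6 genes changed sign between pairs.

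**Figure D1:**
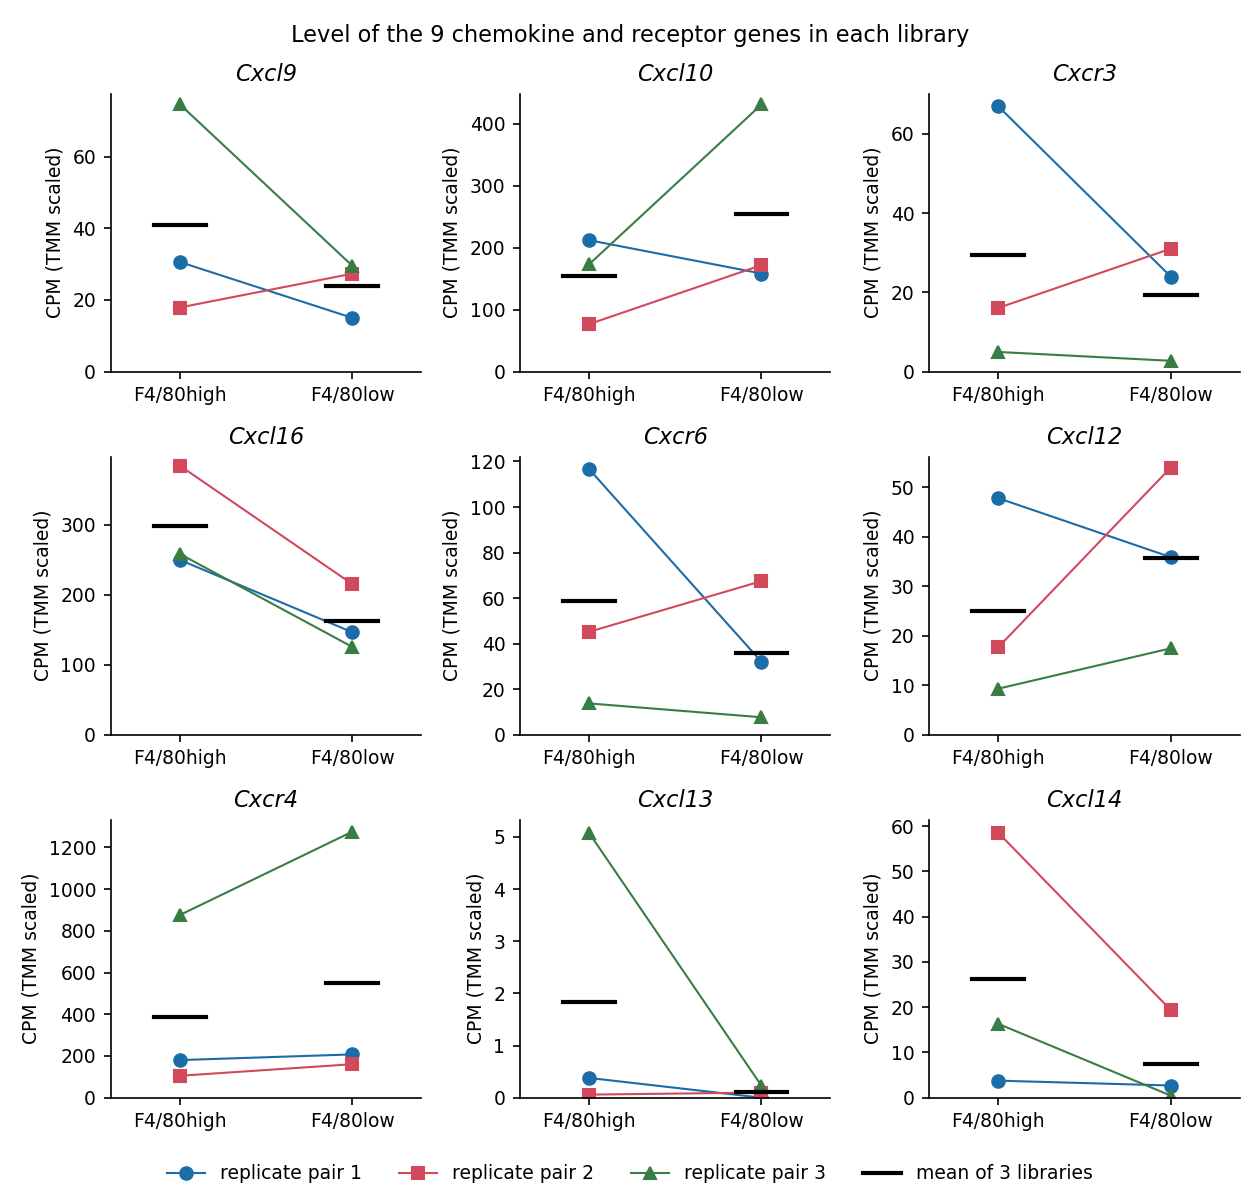
Level of each of the 9 genes in each library, in TMM-scaled CPM on linear axes that start at 0 and differ between panels. Lines join the libraries of a replicate pair and black bars are means of 3 libraries; *Cxcl16* lay at 250 CPM or more in F4/80high and at 215 CPM or less in F4/80low, while the lines of *Cxcl9*, *Cxcr3* and *Cxcr6* cross.

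*Cxcl16* (chr11:70453983-70459984, minus strand, GRCm38) was the ligand with the steadiest difference. It stood at 250, 385 and 258 CPM in F4/80high replicates 1 to 3 and at 146, 215 and 125 CPM in F4/80low. With TMM scaling the lowest F4/80high library lay above the highest F4/80low library, and means were 298 ± 75.5 and 162 ± 47.0 CPM (SD, n = 3). The ratio within pairs was 1.71-fold, 1.79-fold and 2.06-fold, log2 0.77, 0.84 and 1.04, and each 95% exact binomial interval, which covers counting error only, lay above 0. By edgeR the log2 fold change was 0.89 (SE 0.26, adjusted p = 0.504), and with the replicate block it was 0.88 (SE 0.19, adjusted p = 0.0970). DESeq2 gave adjusted p = 0.0975 with batch and adjusted p = 0.00234 with the block, at a log2 fold change of 0.89 that is under the size asked of a call. The two-sided exact permutation p of the TMM-scaled levels was 0.1, the smallest that 3 against 3 libraries allow. Scaled to the library total alone, the subsets overlapped. F4/80high replicate 3 was then at 149 CPM, below F4/80low replicates 1 and 2 at 177 and 269 CPM.

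*Cxcl16* shares 552 exonic bases with *Zmynd15* on the opposite strand, and whether the counting used strand is not given in the sources used here. *Zmynd15* held 2003, 3750 and 601 counts in F4/80high against 1042, 1677 and 130 in F4/80low, against 9900, 19800 and 2391, and 5835, 8757 and 1100, for *Cxcl16*. *Zmynd15* was also higher in F4/80high in every pair, and reads of the 2 genes over the shared bases cannot be told apart without strand. Set against the summed counts of 11 macrophage markers, the *Cxcl16* log2 ratio was 0.79 and 0.89 in pairs 1 and 3 and -0.30 in pair 2. In pair 2 those markers were themselves higher in F4/80high by a log2 ratio of 1.14. The list includes the sort gene *Adgre1*. *Lyz2* alone held 830164 of its 1647136 counts in F4/80high replicate 2, and had a log2 ratio of 1.31 in pair 2. In bulk RNA, fewer cells of a type and less RNA per cell cannot be told apart.

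*Cxcr6* (chr9:123806475-123811760, plus strand), the receptor of CXCL16, was lower in F4/80high in pair 2, where its ligand was higher. It was at 117, 45.1 and 13.7 CPM in F4/80high and at 32.0, 67.5 and 7.64 CPM in F4/80low. The subsets overlapped, and the level ran over 8.50-fold among the F4/80high libraries and over 8.83-fold among the F4/80low libraries. Its log2 ratio was 1.87 in pair 1, -0.58 in pair 2 and 0.84 in pair 3, and the edgeR log2 fold change was 0.75 (SE 0.40, adjusted p = 0.696). Without F4/80high replicate 1 it was 0.26. *Cxcr6* lies within the span of *Fyco1* on the opposite strand and shares no exonic base with it.

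*Cxcr3* (chrX:101731535-101734269, minus strand), the receptor of CXCL9 and CXCL10 on activated T and NK cells, had the same signs by pair as *Cxcr6*. It was at 66.9, 16.1 and 4.97 CPM in F4/80high and at 24.0, 31.0 and 2.74 CPM in F4/80low. F4/80high replicate 1 stood above all other libraries and the subsets overlapped. The log2 ratio was 1.48, -0.95 and 0.86 in pairs 1 to 3, with 46 and 24 counts behind the last. The edgeR log2 fold change of 0.67 (SE 0.47, adjusted p = 0.745) turned to -0.15 without F4/80high replicate 1.

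Summed lymphocyte markers had the same signs by pair as both receptor genes. The summed level of 12 T cell markers was 1301, 459 and 391 CPM in F4/80high replicates 1 to 3 and 484, 649 and 162 CPM in F4/80low. All 12 were higher in F4/80high in pair 1, none in pair 2 and 11 of the 12 in pair 3, and the log2 ratio of the sum was 1.43, -0.50 and 1.27. *Cd3e*, a chain of the T cell receptor complex, was at 163, 59.2 and 34.7 CPM in F4/80high against 52.5, 68.8 and 14.6 CPM in F4/80low. The 8 NK cell markers gave log2 ratios of their sum of 1.33, -0.71 and 0.60, with 8, 1 and 6 of the 8 higher in F4/80high. *Gzmb* and *Nkg7* held 555 and 355 of the 1503 CPM in F4/80high replicate 1. *Ncr1* (log2 ratio 1.23, 0.05 and -0.46) and *Klrk1* (0.86, -0.46 and -1.16) were lower in F4/80high in pair 3, unlike both receptor genes. The 6 B and plasma cell markers gave 0.79, -1.13 and 0.72, with 6, 0 and 4 of the 6 higher. No gene of these 3 lists passed the edgeR call with batch or with the block.

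Against these lymphocyte counts the receptor genes differed less between the subsets. For each 1000 counts of the T cell list, *Cxcr3* held 51.4, 35.0 and 12.7 counts in F4/80high against 49.5, 47.8 and 16.9 in F4/80low, a log2 ratio of 0.06, -0.45 and -0.41. For each 1000 counts of the NK cell list, its log2 ratio was 0.15, -0.24 and 0.26. *Cxcr6* held 89.7, 98.3 and 35.1 counts for each 1000 of the T cell list in F4/80high against 66.0, 104 and 47.1 in F4/80low, a log2 ratio of 0.44, -0.08 and -0.43. For each 1000 counts of the NK cell list, its log2 ratio was 0.54, 0.13 and 0.25, above 0 in all 3 pairs. The sort asked for CD11b and F4/80 and, per the study's methods, for lineage-negative cells. The part of lymphocyte RNA in the *Cxcr3* and *Cxcr6* differences was not tested.

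**Figure D2:**
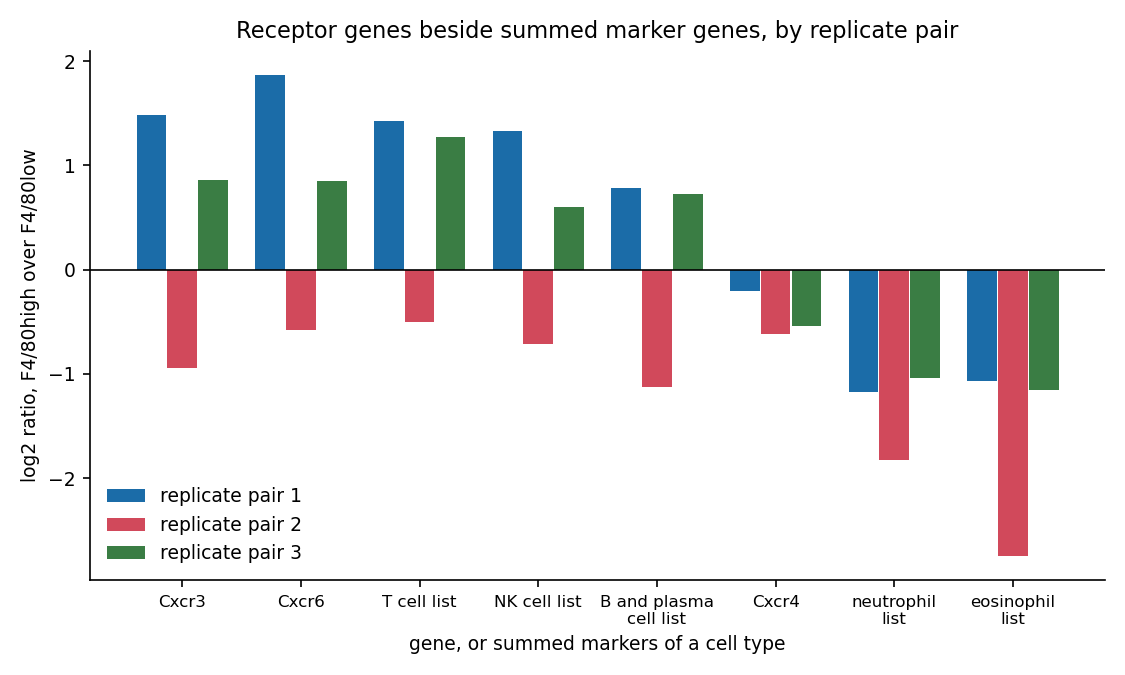
Log2 ratio of F4/80high over F4/80low in each replicate pair for 3 receptor genes and for the summed TMM-scaled counts of 5 marker lists. Bars of *Cxcr3*, *Cxcr6* and the T, NK and B cell lists point up in pairs 1 and 3 and down in pair 2, while *Cxcr4*, the neutrophil list and the eosinophil list point down in all 3 pairs.

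*Cxcl9* (chr5:92321347-92328079, minus strand), an interferon gamma-inducible ligand of CXCR3, showed the same signs by pair. It was at 30.6, 17.9 and 74.6 CPM in F4/80high and at 15.0, 27.3 and 29.5 CPM in F4/80low, highest in F4/80high replicate 3. The subsets overlapped, with means of 41.0 ± 29.8 and 24.0 ± 7.83 CPM (SD, n = 3). The lead of F4/80high replicate 3 depended on TMM. Scaled to the library total alone it was at 43.0 CPM, beside 40.0 CPM in F4/80high replicate 1. Its log2 ratio was 1.03, -0.61 and 1.34, and the edgeR log2 fold change was 0.57 (SE 0.37, adjusted p = 0.724). Leaving out replicate 3 of either subset gave 0.20. The batch term then takes up the other replicate 3 library, so the fit rests on pairs 1 and 2. Leaving out F4/80low replicate 2 gave 0.96. *Ifng*, which encodes interferon gamma, was at 74.9, 19.9 and 2.81 CPM in F4/80high and at 19.8, 33.3 and 0.570 CPM in F4/80low (26 and 5 counts in pair 3), also higher in pairs 1 and 3 and lower in pair 2.

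*Cxcl10* (chr5:92346638-92348889, minus strand), the CXCR3 ligand induced by type I and type II interferons, went the other way in pair 3. It was at 212, 76.6 and 173 CPM in F4/80high and at 158, 172 and 431 CPM in F4/80low, and the subsets overlapped. Its log2 ratio was 0.42 in pair 1, -1.17 in pair 2 and -1.32 in pair 3. The edgeR log2 fold change was -0.56 (SE 0.39, adjusted p = 0.740), and -0.70 with the block (adjusted p = 0.547). F4/80high replicate 1 weighed on this value, which was -1.20 (adjusted p = 0.0739) in its absence. Dropping replicate 3 of either subset gave -0.19, and there too the fit rests on pairs 1 and 2. *Art3* overlaps *Cxcl10* on the opposite strand over 133 exonic bases and held 9 to 120 counts, against 1599 to 8400 for *Cxcl10*.

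The balance of the 2 interferon-inducible ligands, per length of transcript, differed by pair in 1 direction. The ratio of *Cxcl10* to *Cxcl9* in RPKM was 9.28, 5.73 and 3.10 in F4/80high against 14.1, 8.42 and 19.5 in F4/80low. It was lower in F4/80high in 3 of 3 pairs, but F4/80high replicate 1 lay above F4/80low replicate 2. The two-sided exact permutation p was 0.2, and 0.8 after Benjamini-Hochberg adjustment over the 4 ratios of members computed. *Cxcl11*, the remaining CXCR3 ligand and a pseudogene in many laboratory mice, was annotated as such and not tested. It held 169, 58 and 125 counts in F4/80high against 120, 127 and 136 in F4/80low, with a log2 ratio of 0.50, -1.47 and -0.20.

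**Figure D3:**
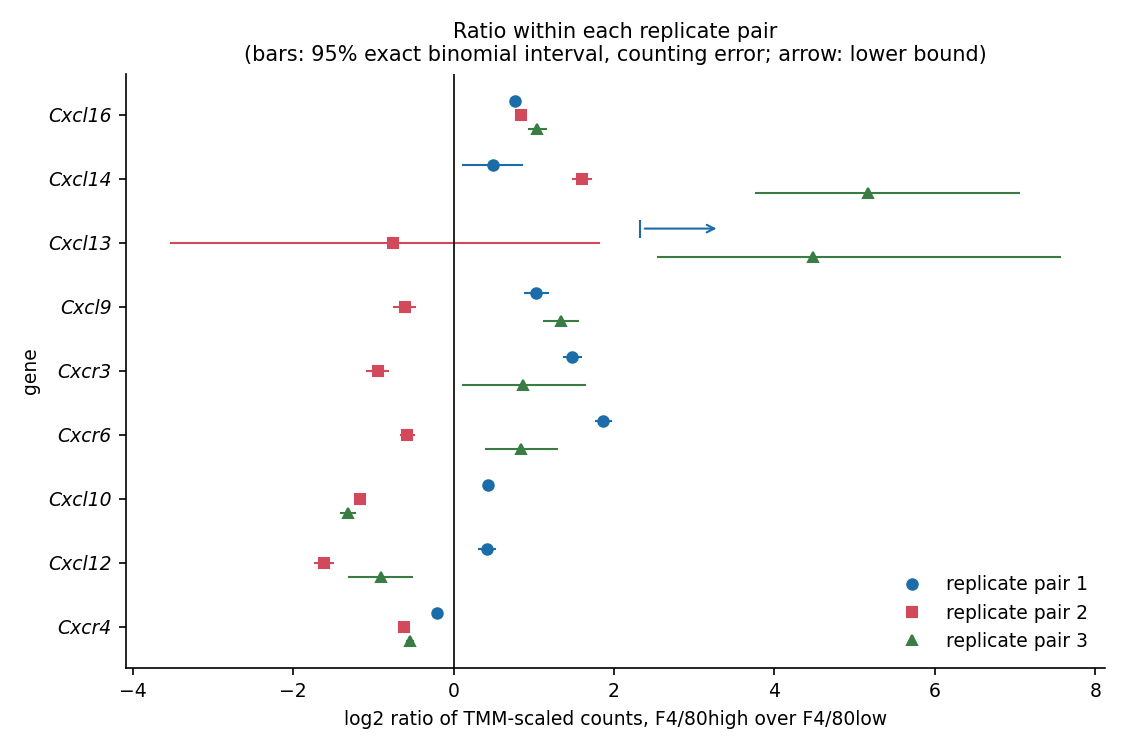
Log2 ratio of TMM-scaled counts, F4/80high over F4/80low, for the 9 genes in each replicate pair, with 95% exact binomial intervals for counting error; the arrow is the lower bound for *Cxcl13* in pair 1, where F4/80low had 0 counts. Points of *Cxcl16* lie together from 0.77 to 1.04, those of *Cxcl14* spread from 0.49 to 5.16, and *Cxcl9*, *Cxcr3* and *Cxcr6* have pair 2 alone below 0.

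*Cxcr4* (chr1:128588199-128592293, minus strand), a receptor used by neutrophils, monocytes and lymphocytes to respond to CXCL12, had the highest mean RPKM of the 9 in both subsets, a place that in F4/80high rested on replicate 3. Without that library its F4/80high mean was 78.8 RPKM, below *Cxcl16* at 105 RPKM. It was at 180, 105 and 875 CPM in F4/80high and at 207, 160 and 1275 CPM in F4/80low, so replicate 3 of either subset stood above every other library. F4/80high was lower in each pair, by a log2 ratio of -0.20, -0.61 and -0.54, although levels overlapped between subsets. With scaling to the library total alone, the ratio in pair 1 was -0.09. The edgeR log2 fold change was -0.43 (SE 0.26, adjusted p = 0.714), and with the block it was -0.45 (SE 0.19, adjusted p = 0.453).

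Summed granulocyte markers were lower in F4/80high in every pair, as *Cxcr4* was, and they were not alone in this. Summed dendritic cell markers had log2 ratios of -0.87, -0.96 and -0.65, fibroblast markers -0.24, -1.24 and -0.31, and endothelial markers -0.10, -0.28 and -0.09. The remaining marker lists changed sign between pairs. Sums of 8 hypoxia-related genes gave -0.62, -0.30 and -0.36, and those of other CXC family genes -0.64, -0.48 and -0.49. The 9 neutrophil markers were all lower in F4/80high in every pair, and their sum was at 2043, 833 and 723 CPM against 4595, 2949 and 1489 CPM in F4/80low. With the block, edgeR called 6 of the 9 lower, *S100a8*, *S100a9*, *Cxcr2* (also a CXC family gene), *Mmp8*, *Camp* and *Ngp*, and with batch alone none. The 7 eosinophil markers gave log2 ratios of their sum of -1.07, -2.75 and -1.15, with none called in either edgeR fit. *Cxcr4* differed less than the neutrophil sum, and for each 1000 neutrophil-list counts it was higher in F4/80high, by a log2 ratio of 0.97, 1.21 and 0.50. For each 1000 macrophage-list counts it was lower in F4/80high, by a log2 ratio of -0.18, -1.75 and -0.70, so its direction depended on the list it was set against. The part of RNA from granulocytes or other cell types in the *Cxcr4* difference was not tested.

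*Cxcl12* (chr6:117168535-117181367, plus strand), the stromal ligand of CXCR4, was at 47.8, 17.7 and 9.30 CPM in F4/80high and at 35.9, 54.0 and 17.5 CPM in F4/80low. The subsets overlapped, and the log2 ratio was 0.41, -1.61 and -0.91. The edgeR log2 fold change was -0.60 (SE 0.38, adjusted p = 0.720), and leaving out F4/80high replicate 2 or 1 gave -0.33 or -1.17. The summed 7 fibroblast markers, which include *Col1a1* and *Pdgfra*, were at 1118, 451 and 1541 CPM in F4/80high. In F4/80low they were at 1325, 1065 and 1906 CPM. Their log2 ratios were -0.24, -1.24 and -0.31, with 0, 0 and 2 of the 7 higher in F4/80high. Per 1000 fibroblast-list counts, *Cxcl12* had log2 ratios of 0.66, -0.37 and -0.60. The sort asked for CD45 and CD11b, and the part of fibroblast RNA in the *Cxcl12* difference was not tested. *Ackr3*, a second receptor of CXCL12 that scavenges it, was at 8.88, 12.5 and 15.4 CPM in F4/80high against 13.7, 20.5 and 20.1 CPM in F4/80low. It was lower in F4/80high in 3 of 3 pairs (edgeR log2 fold change -0.58, SE 0.31, adjusted p = 0.696).

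*Cxcl14* (chr13:56288643-56296551, minus strand) was higher in F4/80high in every pair, by amounts that differed widely. It held 149, 3014 and 151 counts in F4/80high against 107, 788 and 4 counts in F4/80low, or 3.76, 58.6 and 16.3 CPM and 2.69, 19.4 and 0.456 CPM. Replicate 2 was the highest library of either subset and the subsets overlapped. The log2 ratio was 0.49, 1.60 and 5.16, the last with a 95% exact binomial interval from 3.77 to 7.06 because F4/80low replicate 3 had only 4 counts. With edgeR the log2 fold change was 2.27 (SE 1.10, adjusted p = 0.686), and 1.94 with the block (SE 0.66, adjusted p = 0.343). DESeq2 with the block gave 2.08 (adjusted p = 0.00957) and called it, whereas DESeq2 with batch did not (adjusted p = 0.570). Leaving out replicate 2 gave an edgeR value of 0.97 where the F4/80high library was dropped and 3.99 where the F4/80low library was. CXCL14 is known from skin epithelium and fibroblasts. Of 5 keratinocyte markers only 2 were among the counted genes, *Krt10* and *Trp63*, with 2 to 80 summed counts in these libraries. Their sum had log2 ratios of 0.68, -0.30 and 2.09, the last from 9 and 2 counts. Per 1000 fibroblast-list counts, *Cxcl14* had log2 ratios of 0.73, 2.84 and 5.47. The part of epithelial or fibroblast RNA in the *Cxcl14* difference was not tested.

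*Cxcl13* (chr5:95956951-95961068, plus strand), the B cell attractant, was near the limit of these libraries. It held 15, 3 and 47 counts in F4/80high against 0, 4 and 2 counts in F4/80low, where 3 counts correspond to 0.0753, 0.0738 and 0.342 CPM. In pair 1 the F4/80high level was 5.03-fold that of 3 counts in the F4/80low library, taken as the limit. Counting error of the 15 F4/80high counts is not in this value. In pair 2 the 2 libraries could not be told apart (log2 ratio -0.75, 95% exact binomial interval from -3.53 to 1.81), and in pair 3 the log2 ratio was 4.48 (interval from 2.54 to 7.56). The edgeR log2 fold change of 2.86 (SE 1.48, adjusted p = 0.696) depends on so few counts, most of them in F4/80high replicate 3. Its receptor gene *Cxcr5* was at 12.3, 2.12 and 2.59 CPM in F4/80high against 6.60, 8.24 and 21.3 CPM in F4/80low, with log2 ratios of 0.89, -1.96 and -3.04 and an edgeR log2 fold change of -0.92 (SE 0.78, adjusted p = 0.790). That value was -0.05 when replicate 3 of either subset was dropped and -2.29 (adjusted p = 0.0785) when F4/80high replicate 1 was. With the block, edgeR gave -1.39 for *Cxcr5* (adjusted p = 0.604).

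**Figure D4:**
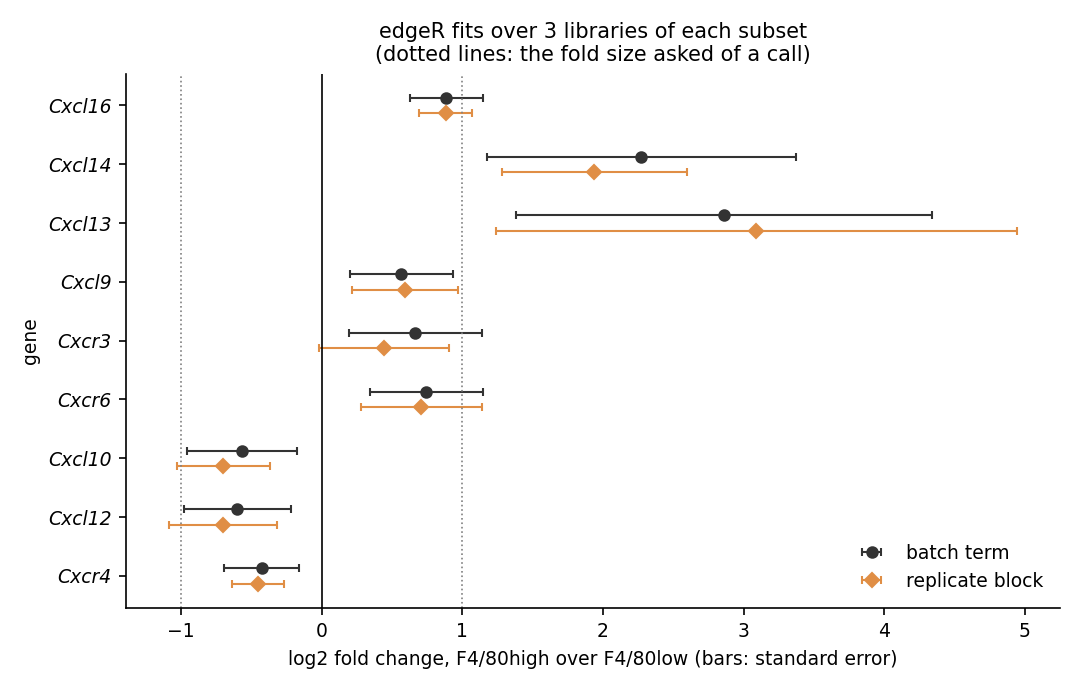
EdgeR log2 fold change, F4/80high over F4/80low, with its standard error for the 9 genes, fitted with batch as a term or with each replicate pair as a block (3 libraries of each subset). The 6 genes above 0 and the 3 below 0 kept their sides in both fits, with no adjusted p under 0.05, and *Cxcl13* and *Cxcl14* have the longest error bars.

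Ordered by mean RPKM, F4/80high held *Cxcr4* (214), *Cxcl16* (98.5), *Cxcl10* (68.3), *Cxcr6* (30.9), *Cxcr3* (16.9), *Cxcl14* (14.4), *Cxcl9* (13.6), *Cxcl12* (3.05) and *Cxcl13* (1.60). In that order the ranges of neighbors overlapped except between *Cxcl9* and *Cxcl12*. *Cxcl16* came first without F4/80high replicate 3, and *Cxcl10* (85.5) passed *Cxcl16* (84.1) without F4/80high replicate 2. In F4/80low, *Cxcr4* (303), *Cxcl10* (113), *Cxcl16* (53.8), *Cxcr6* (18.9), *Cxcr3* (11.1), *Cxcl9* (7.94), *Cxcl12* (4.38), *Cxcl14* (4.12) and *Cxcl13* (0.0946) followed each other. There the ranges were apart between *Cxcl16* and *Cxcr6* and between *Cxcl14* and *Cxcl13*. *Cxcl10* lay above *Cxcl16* in all 3 F4/80low libraries, whereas in F4/80high *Cxcl16* lay above *Cxcl10* in 2 of 3 libraries, replicates 2 and 3.

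Of the 83 genes tested in 7 pathway lists, edgeR with batch called none and the block called 4, or 4.82%, beside 0.519% of all genes. The lists were chosen with earlier results of these data known, so this share is a description and not a test of the pathways. Among 12 tested CXC family genes outside the 9, edgeR with batch called none, and with the block it called *Pf4*, a platelet-type chemokine also made by resident macrophages, higher (log2 fold change 2.50, adjusted p = 0.0324) and *Cxcr2*, the neutrophil chemokine receptor, lower (-1.49, adjusted p = 0.0317). Among 11 enzymes and partners of these chemokines the block called *Mmp9*, a protease that trims several CXC chemokines, lower in F4/80high (-1.48, adjusted p = 0.0304). *Dpp4*, the peptidase that inactivates CXCL10 and CXCL12, had a log2 fold change of -0.91 (adjusted p = 0.695 by edgeR with batch). Of 6 tested CC and C chemokines that attract lymphocytes, the block called *Ccl22*, a ligand of CCR4 on regulatory T cells, lower (-1.56, adjusted p = 0.0348).

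None of the 12 interferon gamma pathway genes, 13 type I interferon genes, 8 hypoxia-related genes or 21 receptor signaling genes passed the edgeR call with batch or with the block. Their median log2 fold changes were -0.08, -0.39, -0.30 and -0.21, against 0.01 over all genes tested. In the interferon gamma list, *Ifng* had the largest estimate above 0 among the genes with the smallest p (log2 fold change 1.11, SE 0.52, adjusted p = 0.683), and *Jak2*, a kinase of the receptor, had -1.07 (SE 0.32, adjusted p = 0.504). The summed type I interferon list had log2 ratios of 0.03, -0.55 and -0.57 in pairs 1 to 3, beside 0.42, -1.17 and -1.32 for *Cxcl10*. Among signaling genes, *Rgs1*, which dampens chemokine receptor signals, had 0.80 (SE 0.26, adjusted p = 0.524), and *Adrbk2*, a receptor kinase also called *Grk3*, had -0.90 (SE 0.36, adjusted p = 0.621).

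Correlation over the 6 libraries, after the mean of each pair was subtracted, rests on 3 differences and was high for many genes. *Lig1*, *Smagp* and *Jtb* followed *Cxcl16* most closely, and *Syne2*, *Ern1* and *Camkk2* followed *Cxcr4*, each with a Pearson r above 0.99. Of the 10984 other genes compared, 533 had an r above 0.95 with *Cxcl16* and 465 with *Cxcr4*, so likeness in these libraries names no particular partner. For the remaining genes above the level asked of this comparison, that count ran from 267 for *Cxcr6* to 588 for *Cxcl14*.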

How the data were processed

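The deposited files hold raw counts per gene, 1 table per library, with gene lengths. Per the paper's methods the sequencing core's pipeline made them, and the genome build and strand setting are not given in the sources used here. Coordinates and gene types are from GENCODE M21 (GRCm38), in which 99.4% of the genes were found, and promoters from RefSeq (GRCm38.p6).

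Protein-coding genes with at least 10 counts over the 6 libraries (14645, all 9 members among them) were fitted with edgeR 4.0.16 (quasi-likelihood, TMM) in R 4.3.3, with batch (replicate 3 of both subsets is batch 2, after the study's batch-marked PCA) and subset as terms. P-values were adjusted by Benjamini-Hochberg over all genes. SE is the absolute log2 fold change over the square root of F. Log2 fold changes and ratios are F4/80high over F4/80low. Alternatives were DESeq2 1.42.0, a replicate block, other scalings, other filters and gene types, and leaving out each library or batch 2. EdgeR values of single genes are from the fit with batch unless the block is named. Permutation tests were exact, over TMM-scaled log2 CPM, and did not use the pairs. Interval and floor (3 counts) cover counting error only. RPKM used the deposited lengths. The steps were tested on simulated data.

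Same-numbered libraries were taken to come from the same independent experiment, which the sample titles and the paper do not state. After the mean of each subset was subtracted, the libraries of pairs 1 to 3 had a Pearson r of 0.745, 0.729 and 0.907 (10072 genes). Differently numbered libraries of the first batch correlated at 0.612 and 0.633. The replicate block was kept beside the fit with batch because the numbers may mark the experiments.

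Members and lists were chosen with earlier results of these data known. Named genes were the 9 members, the other receptors and ligand of their axes (*Cxcr5*, *Ackr3*, *Cxcl11*), up to 3 genes per list and direction with the smallest p, markers whose list moved with a member, and the 3 genes most correlated with a member, printed for *Cxcl16* and *Cxcr4*. Marker lists of dendritic and endothelial cells were also counted: 0 of 9 and 0 of 5 tested genes were called with batch, and *Cd209a* of the dendritic list was lower with the block (log2 fold change -2.21). Of 11 macrophage markers the block called 4 higher, *Mertk*, *C1qa*, *C1qb* and *C1qc*. These names beyond the smallest p, and *Mmp8*, *S100a8*, *S100a9*, *Ncr1* and *Lyz2*, were chosen after their values were seen.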

Additional observations from a re-analysis of the deposited data

How the results depend on the processing

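The count of calls over all genes was 0 with edgeR and batch, 76 with the replicate block, 148 with DESeq2 and batch and 354 with DESeq2 and the block, and it ranged from 0 to 57 when single libraries were left out, the highest without F4/80high replicate 1. Among the 9 genes, DESeq2 with the block called 1, *Cxcl14*, and every setting that left out a library called 0. Among the pathway and marker lists, which had 0 calls, the counts were 14 with the edgeR replicate block, 10 with DESeq2 and batch, 23 with DESeq2 and the block, and 0 to 1 with a library left out. The pairing changed no other call among the 9.

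Under the alternatives run, 8 of the 9 genes kept the sign of their log2 fold change, and *Cxcr3* turned to -0.15 without F4/80high replicate 1 and reached 1.11 without F4/80high replicate 2. Scaling to the library total alone moved several ratios within pairs by more than their counting intervals and turned none, and in F4/80low 2 genes, *Cxcl12* and *Cxcl14*, then swapped places in the order of levels. That scaling shifted the median log2 ratio of 10765 genes with at least 10 counts in every library by 0.11, -0.08 and 0.09 in pairs 1 to 3, relative to TMM. With it the *Cxcl16* levels of the subsets overlapped. The filter that needs 10 counts in every library left out *Cxcl13* and *Cxcl14*, and the edgeR default filter left out *Cxcl13*. Depth limited *Cxcl13*, which held 0 to 4 counts in F4/80low, and *Cxcl14* in F4/80low replicate 3, with 4 counts. With 3 pairs, 2 of them in 1 batch, a difference between batches in any of these ratios was not tested.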
